A study of Mus musculus with 28 samples.

Results

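The genes described here are 10 members of the BCL2 family, which decide whether a cell's mitochondria are opened for apoptosis: the survival genes Bcl2, Bcl2l1 and Mcl1, the pore-forming genes Bax and Bak1, and the BH3-only genes Bad, Bid, Bmf, Bcl2l11 and Bbc3. They were taken by symbol from a fixed list and matched to 10 of the 56748 Ensembl gene identifiers counted in each library. The data were gene counts of 28 libraries from mouse mammary cell lines, made from total RNA after removal of ribosomal RNA. HC11, labelled untransformed, is an epithelial line in which lactogenic hormones induce milk protein genes, and 4T1 is a mammary cancer line. HC11 gave 10 libraries labelled DOX and 10 labelled DOX + DIP, and 4T1 gave 8 labelled DOX, so that all 28 carried DOX. The labels spell out neither DOX nor DIP, and name no construct, dose, time or clone. DIP is a common short form of dexamethasone, insulin and prolactin, the lactogenic mix given to HC11. The labels name no culture either, so p-values measure only the spread between these libraries, which may be technical.

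Members of the BCL2 family share short homology regions, BH1 to BH4. BCL-2, BCL-xL (from Bcl2l1) and MCL-1 hold the death-promoting members in check. BAX and BAK form pores in the outer mitochondrial membrane once they are freed or activated, which lets cytochrome c out to form the apoptosome with APAF-1 and switch on caspases. The BH3-only proteins carry a single such region, with which they occupy the groove of the survival proteins or activate BAX and BAK. BIM (from Bcl2l11) and PUMA (from Bbc3) bind every survival protein, BAD binds BCL-2 and BCL-xL, BMF responds to loss of attachment, and BID links death receptors to mitochondria after it is cut by caspase-8. In the mammary gland MCL-1 and BCL-xL are known for keeping secretory cells alive, and BIM and BMF for the death of cells that fill the duct lumen and of cells lost in involution.

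The stretch that these 10 genes have in common is the core of the BH3 region. It was found with a pattern of residues that allowed glycine, alanine or serine before the aspartate. A match to so short a pattern does not by itself show kinship. Each line is coding sequence of a GENCODE vM21 transcript, 5′ to 3′, with capitals at the codon of the invariant leucine and at the adjoining codons of a small residue and of aspartate.
Bcl2: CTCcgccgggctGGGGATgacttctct
Bcl2l1: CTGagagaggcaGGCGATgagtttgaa
Mcl1: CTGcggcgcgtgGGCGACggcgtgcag
Bax: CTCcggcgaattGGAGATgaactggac
Bak1: CTTgctctcatcGGAGATgatattaac
Bad: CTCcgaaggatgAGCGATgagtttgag
Bid: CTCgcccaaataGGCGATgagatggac
Bmf: CTTcagtgtattGCAGACcagttccat
Bcl2l11: CTGcggcggatcGGAGACgagttcaac
Bbc3: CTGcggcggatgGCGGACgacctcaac
A glycine codon (GGN) stands at the small residue in 7 of these genes, an alanine codon (GCN) in Bmf and Bbc3 and the serine codon AGC in Bad.

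Libraries held 134117581 to 222065843 counts, so that the lowest count of any of the 10 genes in any library was 170 (Bmf in a 4T1 library). Values are given as CPM, counts scaled to a common library size with TMM factors over all libraries, and as log2 fold changes ± SE with Benjamini-Hochberg adjusted p from edgeR's quasi-likelihood test over all genes, with a gene called at an adjusted p under 0.05. HC11 DOX + DIP libraries 8 and 10 stood apart from the other 8 of their group: they lay together above or below all of those for 51.2% of 23829 genes. Tsc22d3, a gene induced by glucocorticoids, stood at 35.3 and 48.0 CPM in them against a median of 407 in the other 8, and Fkbp5, another such gene, at 22.8 and 23.5 against 267. Of the 10 BCL2 family genes, 3 lay above and 5 below the other 8 in both libraries. The calls of DIP are therefore also given without them. The 6 epithelial markers (Krt8, Krt18, Krt5, Krt14, Epcam and Cdh1) summed to 3446 to 7996 CPM in HC11 DOX, 444 to 2211 in HC11 DOX + DIP and 2134 to 3038 in 4T1 DOX, none of them under 1 CPM on average. The sum of 444 was that of DIP library 8. Libraries 8 and 10 lay below the other 8 for all of these markers but Cdh1, as with Krt5 at 58.6 and 89.1 CPM against 323 to 814. The 9 markers of other cells summed to 35.4 to 95.4, 14.3 to 168 and 13 to 22.8 CPM, with 4, 5 and 6 of them under 1 CPM. The part of these shifts in the results below was not tested, and in bulk RNA fewer cells of a type and less RNA per cell cannot be told apart.

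DIP in HC11 went with more RNA of the survival genes Bcl2l1 and Mcl1 and of the BH3-only gene Bbc3, and with less of the pore former Bak1. Bcl2l1 was 2.05-fold, Mcl1 1.66-fold and Bbc3 2.66-fold higher, and Bak1 was 1.78-fold lower (n = 10 and 10). These 4 of 10 genes passed the test, against 45.5% of all 23829 genes tested, so the share was near the background. The 3 that rose stood against 24.5% of all genes, and the 1 that fell against 21.0%. The median log2 fold change of the 10 was 0.13, and that of all genes 0.06. For 2 of the 10, Mcl1 and Bbc3, every DIP library lay above every DOX library, against 11.4% of all genes whose groups did not overlap.

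**Figure D1:**
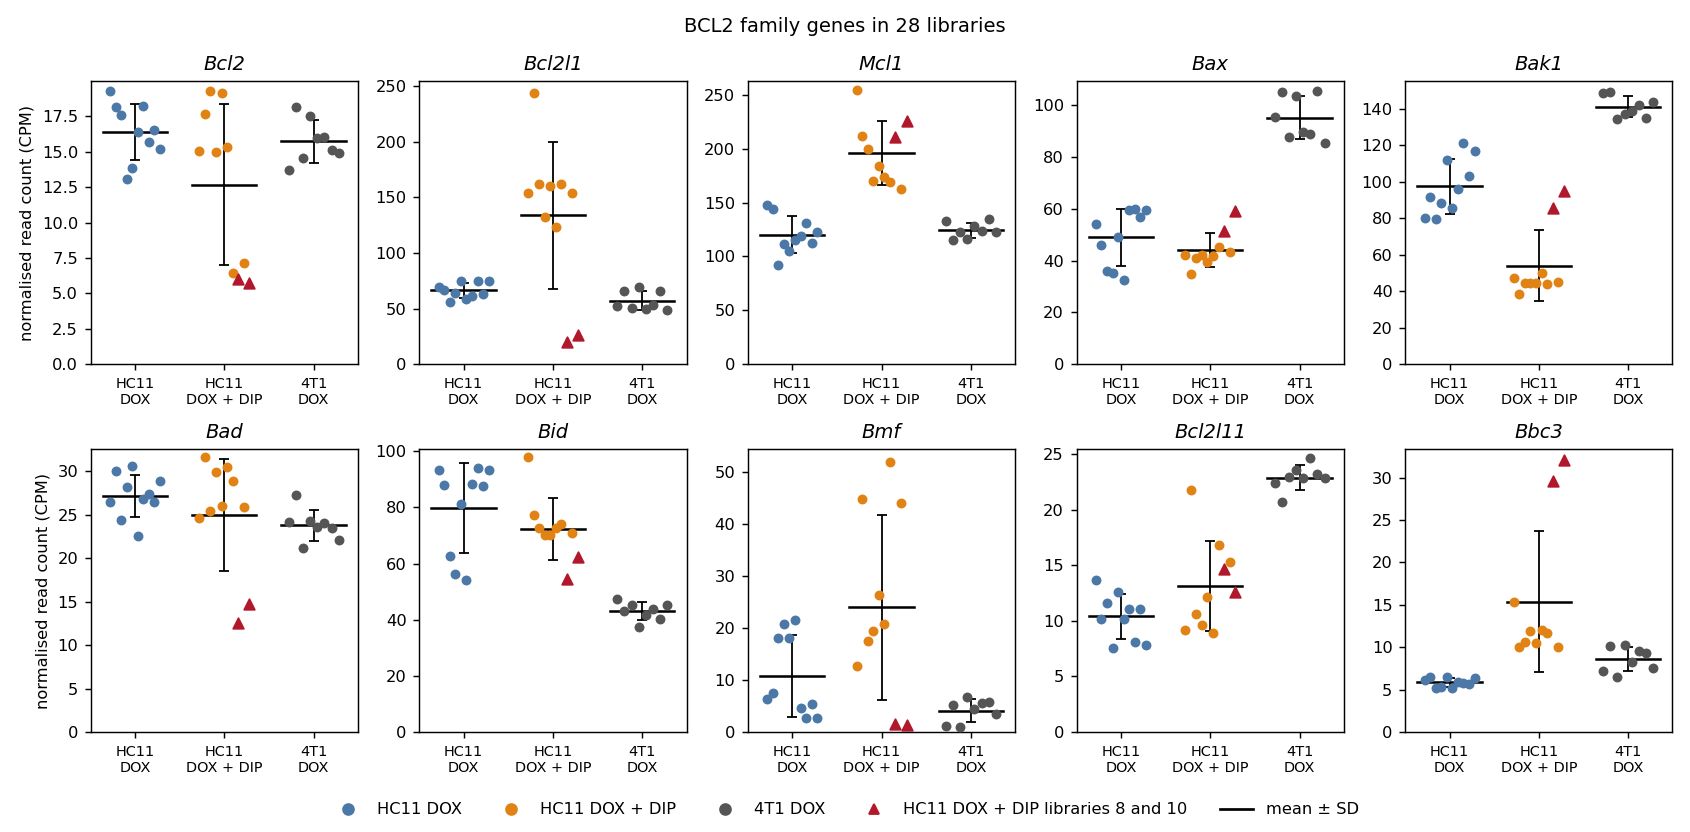
Level of each gene in CPM (linear axes from 0) in the HC11 DOX, HC11 DOX + DIP and 4T1 DOX libraries, 1 point per library, with horizontal bars at the group mean and vertical bars of 1 SD. Red triangles are HC11 DOX + DIP libraries 8 and 10, which fall to 19.98 and 26.5 CPM for Bcl2l1 and reach 29.6 and 32.0 CPM for Bbc3.

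Mcl1, which encodes a short-lived survival protein, lay between 91.8 and 148 CPM with a median of 117 in HC11 DOX and between 163 and 255 with a median of 192 with DIP. The groups did not overlap, and libraries 8 and 10, at 211 and 226 CPM, were within the range of the other 8. The log2 fold change was 0.73 ± 0.10 (adjusted p = 4.11e-06), and 0.68 ± 0.10 (adjusted p = 1.15e-05) without those libraries.

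Bcl2l1, whose main product BCL-xL guards the mitochondria of differentiating epithelium, split the DIP libraries. HC11 DOX libraries held 56.3 to 74.9 CPM with a median of 65.3. Of the DIP libraries 8 held 124 to 244 CPM with a median of 157, all above every DOX library, whereas libraries 8 and 10 held 19.98 and 26.5 CPM, below every DOX library. The log2 fold change was 1.04 ± 0.30 (adjusted p = 0.00796) over all libraries and 1.30 ± 0.11 (adjusted p = 6.66e-09) without those 2. By limma voom the call was lost, at 0.73 ± 0.36 (adjusted p = 0.108), and over 28 alternatives the adjusted p ran from 6.66e-09 to 0.108.

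Bcl2, the founding survival gene, ran from 13.04 to 19.3 CPM with a median of 16.5 in HC11 DOX and from 5.73 to 19.3 with a median of 15.02 with DIP. The wide range came from 4 DIP libraries, 7 to 10, at 5.73 to 7.12 CPM, below every DOX library, while the other 6 lay between 14.97 and 19.3 CPM among them. The difference did not pass the test (log2 fold change -0.35 ± 0.22, adjusted p = 0.212), nor did it without libraries 8 and 10 (-0.17 ± 0.18, adjusted p = 0.450).

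Of the pore formers, Bak1 ran from 79.7 to 121 CPM with a median of 93.8 in HC11 DOX and from 38.7 to 95.04 with a median of 44.8 with DIP. The 8 DIP libraries other than 8 and 10 held 38.7 to 50.1 CPM, all below every DOX library, and libraries 8 and 10 held 85.9 and 95.04 CPM, inside the DOX range. Bak1 fell by 0.83 ± 0.16 on the log2 scale (adjusted p = 1.89e-04), and by 1.10 ± 0.09 (adjusted p = 6.13e-09) without them. Bax ran from 32.4 to 59.8 CPM with a median of 51.6 and from 34.9 to 59.2 with a median of 42.2. These ranges overlapped and the difference did not pass the test, at a log2 fold change of -0.13 ± 0.13 (95% interval -0.38 to 0.12, adjusted p = 0.430), nor without libraries 8 and 10 (-0.23 ± 0.12, adjusted p = 0.128). HC11 DOX libraries 3, 4 and 6 were the lowest of their group for Bax, at 32.4 to 36.1 CPM, and for Bid, at 54.0 to 62.6 CPM.

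Among the BH3-only genes, Bbc3, which encodes the p53 target PUMA, lay between 5.20 and 6.51 CPM with a median of 5.84 in HC11 DOX and between 10.03 and 32.0 with a median of 11.8 with DIP. Libraries 8 and 10 were the highest at 29.6 and 32.0 CPM, and the other 8 also lay above every DOX library, at 10.03 to 15.4 CPM. The log2 fold change was 1.41 ± 0.21 (adjusted p = 1.30e-05), and 0.99 ± 0.09 (adjusted p = 2.49e-08) without them.

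Bmf, which encodes a BH3-only protein tethered to the myosin motor in attached cells, varied most of the 10 within each group, with coefficients of variation of 72.4% in HC11 DOX, 73.9% with DIP and 51.2% in 4T1 DOX. HC11 DOX libraries 3 to 6 held 18.1 to 21.6 CPM and the other 6 held 2.63 to 7.58 CPM. The DIP libraries held 1.49 and 1.32 CPM in 8 and 10, and 12.6 to 51.9 CPM in the other 8. The log2 fold change was 1.18 ± 0.56 (adjusted p = 0.0900), and without libraries 8 and 10 Bmf passed the test at 1.48 ± 0.43 (adjusted p = 0.00635). DESeq2 called it over all libraries (adjusted p = 0.0441), as did the fits without library 8 alone (0.0373) or library 10 alone (0.0353), and the alternatives ran from 0.00635 to 0.295.

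Bcl2l11, which encodes BIM, ran from 7.60 to 13.7 CPM in HC11 DOX and from 8.91 to 21.7 with DIP, with medians of 10.6 and 12.4. Its log2 fold change of 0.36 ± 0.17 did not pass the test (adjusted p = 0.0781, 0.0461 to 0.182 over the alternatives). Bad, held inactive by survival kinases, had medians of 27.1 and 25.9 CPM, and libraries 8 and 10 with 12.5 and 14.7 CPM lay below the 24.6 to 31.6 CPM of the other 8. Its log2 fold change was -0.10 ± 0.14 (95% interval -0.38 to 0.18, adjusted p = 0.621). Bid had medians of 87.7 and 71.8 CPM and a log2 fold change of -0.12 ± 0.12 (95% interval -0.36 to 0.12, adjusted p = 0.438). Without libraries 8 and 10 none of these 3 passed, with log2 fold changes of 0.35 for Bcl2l11 (adjusted p = 0.105), 0.05 for Bad (0.575) and -0.06 for Bid (0.695).

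Without libraries 8 and 10, 5 of the 10 genes were called: Bcl2l1, Mcl1, Bmf and Bbc3 rose and Bak1 fell. The background then was 52.4% of genes called. Across the remaining 8 libraries, Bcl2l1, Mcl1 and Bbc3 lay above and Bak1 below every DOX library, 4 of 10 genes against 17.8% of all genes. In libraries 8 and 10 themselves, Bax, Bak1 and Bbc3 were above the other 8, and Bcl2, Bcl2l1, Bad, Bid and Bmf below. Mcl1 and Bcl2l11 lay within the range of the other 8.

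**Figure D2:**
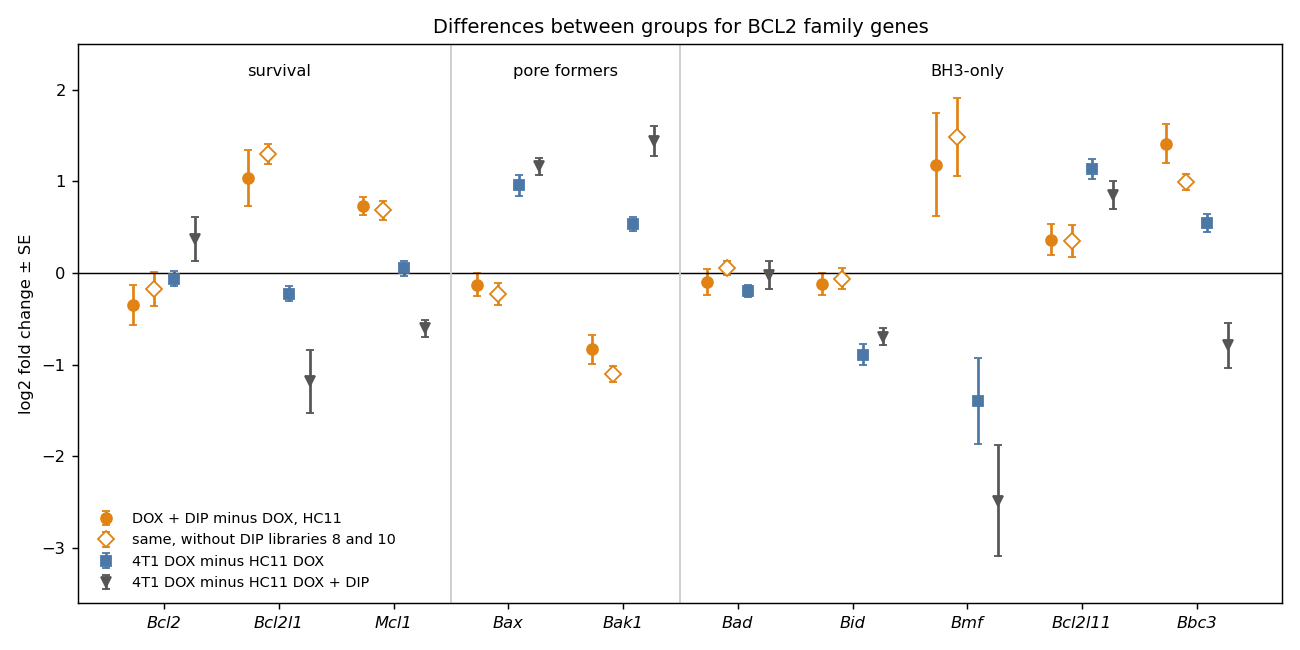
Log2 fold change (y axis, ± SE) of each of the 10 genes, grouped by role, for DIP in HC11 with all libraries (filled circles) and without libraries 8 and 10 (open diamonds), for 4T1 DOX minus HC11 DOX (squares) and for 4T1 DOX minus HC11 DOX + DIP (triangles). Bax and Bak1 stand above 0 for 4T1 against either HC11 group, and Bak1 stands at -0.83 for DIP.

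Set against HC11 DOX, 4T1 held more RNA of both pore formers and of the BH3-only genes Bcl2l11 and Bbc3, and less of Bcl2l1, Bad, Bid and Bmf. Bcl2l11 was 2.20-fold, Bax 1.94-fold, Bbc3 1.46-fold and Bak1 1.45-fold higher, and Bmf 2.63-fold and Bid 1.85-fold lower (n = 8 and 10). These 8 of 10 called genes stood against 69.9% of 23875 genes. Of all genes 34.3% were called higher and 35.6% lower, and of the 10 there were 4 in each direction. The groups did not overlap for Bax, Bak1 and Bcl2l11, which were higher in all 4T1 libraries, and for Bid, which was lower in all of them, against 36.8% of all genes. The median log2 fold change was -0.00 over the 10 and -0.01 over all genes. Cell line and any difference between the cultures cannot be told apart in this comparison.

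Both pore formers were above the HC11 range in every 4T1 library. Bax lay between 85.5 and 106 CPM with a median of 92.7 in 4T1 DOX, against a highest value of 59.8 CPM in HC11 DOX (log2 fold change 0.96 ± 0.11, adjusted p = 3.22e-07). Bak1 lay between 135 and 150 CPM with a median of 141, against a highest value of 121 CPM (0.54 ± 0.08, adjusted p = 6.21e-06). Bak1 was also the steadiest of the 10 in 4T1, with a coefficient of variation of 4.14%.

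The survival genes were closer between the lines. Mcl1 lay between 115 and 134 CPM with a median of 123 in 4T1 DOX, within the HC11 DOX range (log2 fold change 0.05 ± 0.08, 95% interval -0.10 to 0.21, adjusted p = 0.566). Bcl2 lay between 13.7 and 18.2 CPM with a median of 15.5, also within that range (-0.06 ± 0.08, 95% interval -0.22 to 0.10, adjusted p = 0.525). Bcl2l1 lay between 49.0 and 69.5 CPM with a median of 53 and overlapped HC11 DOX. It was called at -0.22 ± 0.08 (adjusted p = 0.0173), a call lost without 4T1 library 1, 5 or 6 (adjusted p = 0.0738, 0.0847 and 0.0715) and without libraries 1 and 2 together (0.0525). Over 26 alternatives the adjusted p for Bcl2l1 ran from 1.92e-05 to 0.506.

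The BH3-only genes differed in both directions. Bcl2l11 lay between 20.6 and 24.6 CPM with a median of 22.9 in 4T1 DOX, above the highest HC11 DOX value of 13.7 (log2 fold change 1.13 ± 0.11, adjusted p = 1.74e-08). Bbc3 lay between 6.48 and 10.3 CPM with a median of 8.81, and its lowest library was below the highest HC11 DOX library at 6.51 (0.55 ± 0.10, adjusted p = 4.45e-05). Bid lay between 37.5 and 47.5 CPM with a median of 43.5, below the lowest HC11 DOX value of 54.0 (-0.89 ± 0.11, adjusted p = 5.88e-07). Low and scattered values marked Bmf, at 1.06 to 6.77 CPM with a median of 4.80, with libraries 1 and 3 at 1.11 and 1.06 CPM (-1.40 ± 0.47, adjusted p = 0.0128). Bad lay between 21.2 and 27.3 CPM with a median of 23.8 and overlapped HC11 DOX (-0.19 ± 0.07, adjusted p = 0.0141, 3.07e-06 to 0.204 over the alternatives).

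Scaling by library totals alone moved all 4T1 values down, with a median over all genes of -0.24 against HC11 DOX and -0.34 against HC11 DOX + DIP. The share of higher genes among those called went from 49.0% to 35.9% and from 48.6% to 37.5%, while 69.6% and 74.2% of genes were called. Under that scaling Bcl2 was called lower against HC11 DOX, at -0.30, close to the shift of all genes, and Mcl1 turned from 0.05 to -0.18. The directions of the other 8 genes held against HC11 DOX. For DIP in HC11 the totals changed the median over all genes by little, from 0.06 to 0.05, with 45.1% of genes called. Without 4T1 libraries 1 and 2 together, 66.4% of genes were called against HC11 DOX and 70.4% against HC11 DOX + DIP, and of the 10 genes Bcl2l1 alone changed its call, in the former comparison.

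Set against HC11 DOX + DIP, 4T1 held more of Bax, Bak1 and Bcl2l11 and less of Bcl2l1, Mcl1, Bid, Bmf and Bbc3 (n = 8 and 10). This comparison shares its 4T1 libraries with the one against HC11 DOX, and its DIP libraries with the one of DIP, so the values are set side by side and not taken as independent. Again 8 of 10 genes were called, against 73.8% of 24132 genes. The 3 higher stood against 35.9% of all genes and the 5 lower against 37.9%. Bax and Bak1 were higher and Mcl1 and Bid lower in all 4T1 libraries, against 39.6% of all genes whose groups did not overlap.

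Bak1 differed by 1.44 ± 0.16 on the log2 scale (adjusted p = 1.49e-07) and Bax by 1.16 ± 0.09 (adjusted p = 1.20e-09), both higher in 4T1. Lower in 4T1 were Mcl1 at -0.60 ± 0.09 (adjusted p = 8.07e-06), Bcl2l1 at -1.18 ± 0.34 (adjusted p = 0.00450) and Bid at -0.69 ± 0.10 (adjusted p = 2.23e-06). Bmf had the widest interval, -2.48 ± 0.61 (95% interval -3.67 to -1.29, adjusted p = 0.00112). Bbc3, which was higher in 4T1 than in HC11 DOX, was lower than in HC11 DOX + DIP at -0.79 ± 0.24 (adjusted p = 0.00686), and Bcl2l11 was higher at 0.85 ± 0.15 (adjusted p = 5.87e-05). Bcl2 (0.37 ± 0.24, adjusted p = 0.175) and Bad (-0.02 ± 0.15, adjusted p = 0.908) did not pass.

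Leaving out DIP libraries 8 and 10 brought Bad past the threshold at -0.24 ± 0.07 (adjusted p = 0.00521), so that 9 of 10 genes were called against 79.6% of all genes. It moved Bcl2l1 to -1.52 and Bbc3 to -0.44 on the log2 scale. By limma voom the call of Bcl2l1 was lost (-0.88 ± 0.41, adjusted p = 0.0568), within a range of 1.69e-09 to 0.0568 over 27 alternatives.

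To set the genes against each other, CPM were divided by the length of each gene's merged exons in kilobases, as a description with no test. Bak1 led in HC11 DOX with 40.5 ± 6.29 CPM per kilobase (SD, n = 10), followed by Mcl1 with 35.1 ± 5.02 and Bax with 31.0 ± 6.90, and the ranges of neighbours in that order overlapped. Bid (22.5) came next, and Bcl2l1 (14.5) and Bad (10.6) did not overlap in range. Bbc3, Bmf, Bcl2 and Bcl2l11 stood between 2.76 and 1.30 CPM per kilobase, and the ranges of neighbours in that order overlapped.

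With DIP the order began with Mcl1 at 57.4 ± 8.72 CPM per kilobase and Bcl2l1 at 29.2 ± 14.5, with Bax at 27.96, Bak1 at 22.4 and Bid at 20.3. Mcl1 was above Bcl2l1 in 10 of 10 libraries, although their ranges overlapped across libraries, and Bcl2l1 was above Bax in 8 of 10. The exceptions were again libraries 8 and 10. In 4T1 DOX the pore formers led, Bax with 60.4 ± 5.33 and Bak1 with 58.7 ± 2.43 (n = 8), which overlapped each other and not Mcl1 at 36.4 ± 2.04. Bmf was last in 4T1 at 0.79 ± 0.41 CPM per kilobase, below the range of Bcl2 at 1.72.

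The length used matters most for Bcl2l1: per kilobase of its longest transcript it stood at 25.9, 52.1 and 22.2 CPM in the 3 groups, where merged exons gave 14.5, 29.2 and 12.4. With that length Bax (44.5) came before Bak1 (40.8) in HC11 DOX, and Mcl1 (57.4) still before Bcl2l1 (52.1) with DIP.

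As shares of the summed level of the 10 genes per kilobase, the 3 survival genes held 31.8% ± 2.76 (SD, n = 10) in HC11 DOX, 48.2% ± 6.09 (n = 10) with DIP and 25.5% ± 0.80 (n = 8) in 4T1 DOX. The 2 pore formers held 43.9% ± 3.16, 27.9% ± 7.01 and 59.9% ± 0.73. The 5 BH3-only genes held 24.2% ± 1.18, 24.0% ± 2.02 and 14.6% ± 0.48. Survival shares ran from 28.7% to 35.4% in HC11 DOX, from 38.2% to 57.0% with DIP and from 23.8% to 26.7% in 4T1. These 3 ranges did not overlap with merged exons as length. For the pore formers DIP libraries 8 and 10, with 39.8% and 40.6%, reached the HC11 DOX range of 39.7% to 47.4%, and the other 8 lay between 18.6% and 27.9%. With the longest transcript as length, the survival shares were 30.7% ± 2.47, 46.6% ± 7.35 and 24.3% ± 0.65. The ranges of HC11 DOX and HC11 DOX + DIP then overlapped, since DIP library 10 fell within the HC11 DOX range.

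**Figure D3:**
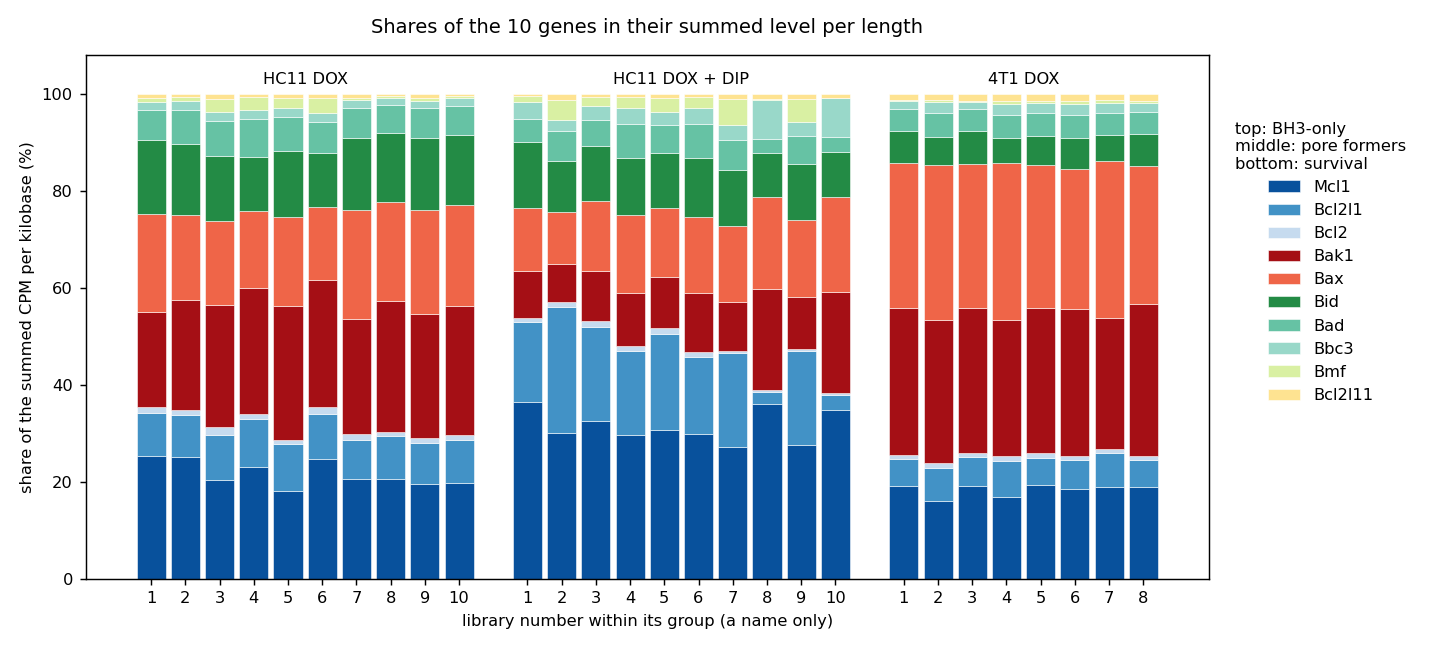
Share of each of the 10 genes (y axis, percent of their summed CPM per kilobase) in each library (x axis, number within its group). Numbers follow the order of the series and name no batch or culture. Bars are stacked with the survival genes in blue at the bottom, the pore formers in red in the middle and the BH3-only genes on top. Survival genes take 38.2% to 57.0% in the HC11 DOX + DIP libraries and 23.8% to 26.7% in 4T1 DOX.

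Pairs of partners show the same values per length. Bax stood at 2.14 ± 0.40 times Bcl2l1 in HC11 DOX and at 4.89 ± 0.33 times in 4T1 DOX. With DIP the ratio was 0.42 to 0.99 in 8 libraries, below the lowest HC11 DOX value of 1.61, and 7.46 and 6.50 in libraries 8 and 10, above the highest 4T1 value of 5.27. Bak1, which MCL-1 and BCL-xL restrain, stood at 1.17 ± 0.22 times Mcl1 in HC11 DOX, 0.39 ± 0.12 times with DIP and 1.62 ± 0.12 times in 4T1. That ratio was below every HC11 DOX library in all 10 DIP libraries, 8 and 10 included (0.58 and 0.60 against a lowest HC11 DOX value of 0.77).

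The rest of the death pathway was followed in 56 other genes on 5 lists, whose counts are to be read against the shares of all genes: 24.5% rose and 21.0% fell with DIP, 34.3% were higher and 35.6% lower in 4T1 than in HC11 DOX, and 35.9% were higher and 37.9% lower than in HC11 DOX + DIP. Downstream of the pore, 7 of 13 genes of the apoptosome, released mitochondrial proteins and caspases fell with DIP and 0 rose, with a median log2 fold change of -0.41 against 0.06 for all genes. Without libraries 8 and 10, 9 fell and 0 rose, where 52.4% of 24427 genes were called, 6204 lower and 6599 higher. Apaf1, the scaffold of the apoptosome, fell from 12.7 to 4.02 CPM (-1.64 ± 0.14, adjusted p = 2.92e-09), and was lower in every DIP library than in any DOX library. In 4T1 against HC11 DOX, 7 of the 13 were higher and 4 lower (median 0.32), among the latter Casp2 and Dffa, part of the DNA fragmentation factor (-0.64 ± 0.05 and -0.70 ± 0.14). Against HC11 DOX + DIP, 7 were higher and 3 lower (median 0.82), with Apaf1 at 2.24 ± 0.14.

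Of 15 other BCL2 family genes, 10 passed the filter on low counts in the DIP comparison, 4 of which rose and 4 fell, the same numbers without libraries 8 and 10. Of all genes 24.5% rose and 21.0% fell over all libraries, and 6599 and 6204 of 24427 genes did so without those 2. Bnip3l and Bnip3, which act in removal of mitochondria, rose by 0.92 ± 0.13 and 0.80 ± 0.30 on the log2 scale, a call of Bnip3 (adjusted p = 0.0361) that many alternatives lost, with adjusted p up to 0.0937. Bok, a relative of Bax and Bak1, fell from 1.21 to 0.35 CPM, both low levels. In 4T1 Bok stood at 69.7 CPM, 5.84 ± 0.19 above HC11 DOX on the log2 scale (adjusted p = 1.19e-15), with Bnip3l at 1.25 and Bcl2l13 at -1.19. There 9 of the 15 were tested, 4 higher and 3 lower, against 34.3% and 35.6% of all genes. Against HC11 DOX + DIP 8 were tested, 5 higher and 2 lower (35.9% and 37.9% of all genes), with Bok at 7.67, Bcl2l13 at -0.78 and Bcl2l2, which encodes the survival protein BCL-w, at -0.78.

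Of 5 inhibitors of apoptosis, Birc5 was the 1 that fell with DIP and 0 rose (median 0.13, or 0.20 without libraries 8 and 10, with the same call), where 21.0% of all genes fell and 24.5% rose. Birc5 encodes survivin, which also serves in mitosis, and it fell from 142 to 5.70 CPM (-4.62 ± 0.28, adjusted p = 2.79e-11), beside a fall of the cycling marker Mki67 from 288 to 10.7 CPM. In 4T1 against HC11 DOX 2 were higher and 1 lower, against 34.3% and 35.6% of all genes. The largest difference was that of Birc3, which encodes c-IAP2, named here after its values were seen since its low mean level kept it outside the rule. It stood at 0.59 ± 0.17 CPM in HC11 DOX, 0.63 ± 0.13 with DIP and 18.2 ± 2.06 in 4T1 (4.96 ± 0.18 on the log2 scale against HC11 DOX, adjusted p = 1.14e-14). The others called were Birc2 at -0.71 ± 0.16 and Birc5 at 0.32 ± 0.08, a call of Birc5 that library totals alone and the fit of all groups together did not give (adjusted p = 0.312 and 0.212, the highest of the alternatives). Against HC11 DOX + DIP 2 were higher and 2 lower (35.9% and 37.9% of all genes), with Birc3 at 4.91, Birc5 at 5.02, Birc2 at -0.82 and Birc6 at -0.57.

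In the death receptor arm 1 of 8 genes rose and 3 fell with DIP, against 24.5% and 21.0% of all genes. Without libraries 8 and 10, 3 rose and 3 fell, against 6599 and 6204 of 24427 genes. Cflar, which encodes the caspase-8 inhibitor c-FLIP, rose by 0.92 ± 0.15, and Casp8 and the adaptor gene Tradd fell by 0.67 ± 0.09 and 0.55 ± 0.18 on the log2 scale. In 4T1 against HC11 DOX 5 were higher and 2 lower (34.3% and 35.6% of all genes): Tnfrsf10b, the mouse TRAIL receptor gene, was higher by 1.72 ± 0.10 and Casp8 by 0.99 ± 0.06, and Tnfrsf1a, a TNF receptor gene, lower at -1.01 ± 0.10. Against HC11 DOX + DIP 4 were higher and 3 lower (35.9% and 37.9% of all genes), with Tnfrsf10b at 2.25, Casp8 at 1.73 and Tnfrsf1a at -1.13.

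Among 15 regulators and partners of the 10 genes, 6 rose and 4 fell with DIP, against 24.5% and 21.0% of all genes. As many rose and fell without libraries 8 and 10, against 6599 and 6204 of 24427 genes. Ddit3, which encodes the stress factor CHOP, rose from 13.4 to 89.5 CPM (2.76 ± 0.29, adjusted p = 1.10e-07). Foxo3 and Foxo1, whose products are known to act on Bcl2l11 and Bbc3, rose by 1.90 ± 0.23 and 1.37 ± 0.32 on the log2 scale. In libraries 8 and 10 both were below all of the other 8. Foxo3 was at 67.2 and 60.1 CPM there, against 83.5 to 189 in the other 8 and 22.3 to 53.8 in HC11 DOX. Foxo1 was at 37.6 and 43.2 CPM, against 74.8 to 242 and 41.4 to 98.8. The part of either in the levels of the 10 genes was not tested. In 4T1 against HC11 DOX 4 were higher and 8 lower (34.3% and 35.6% of all genes), with Stat3 at -1.98 ± 0.12, Foxo1 at -1.58 ± 0.19 and Trp53, the p53 gene, at -1.53 ± 0.12. Against HC11 DOX + DIP 4 were higher and 9 lower (35.9% and 37.9% of all genes), with Ddit3 at -3.25, Foxo1 at -2.87 and Foxo3 at -2.53.

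**Figure D4:**
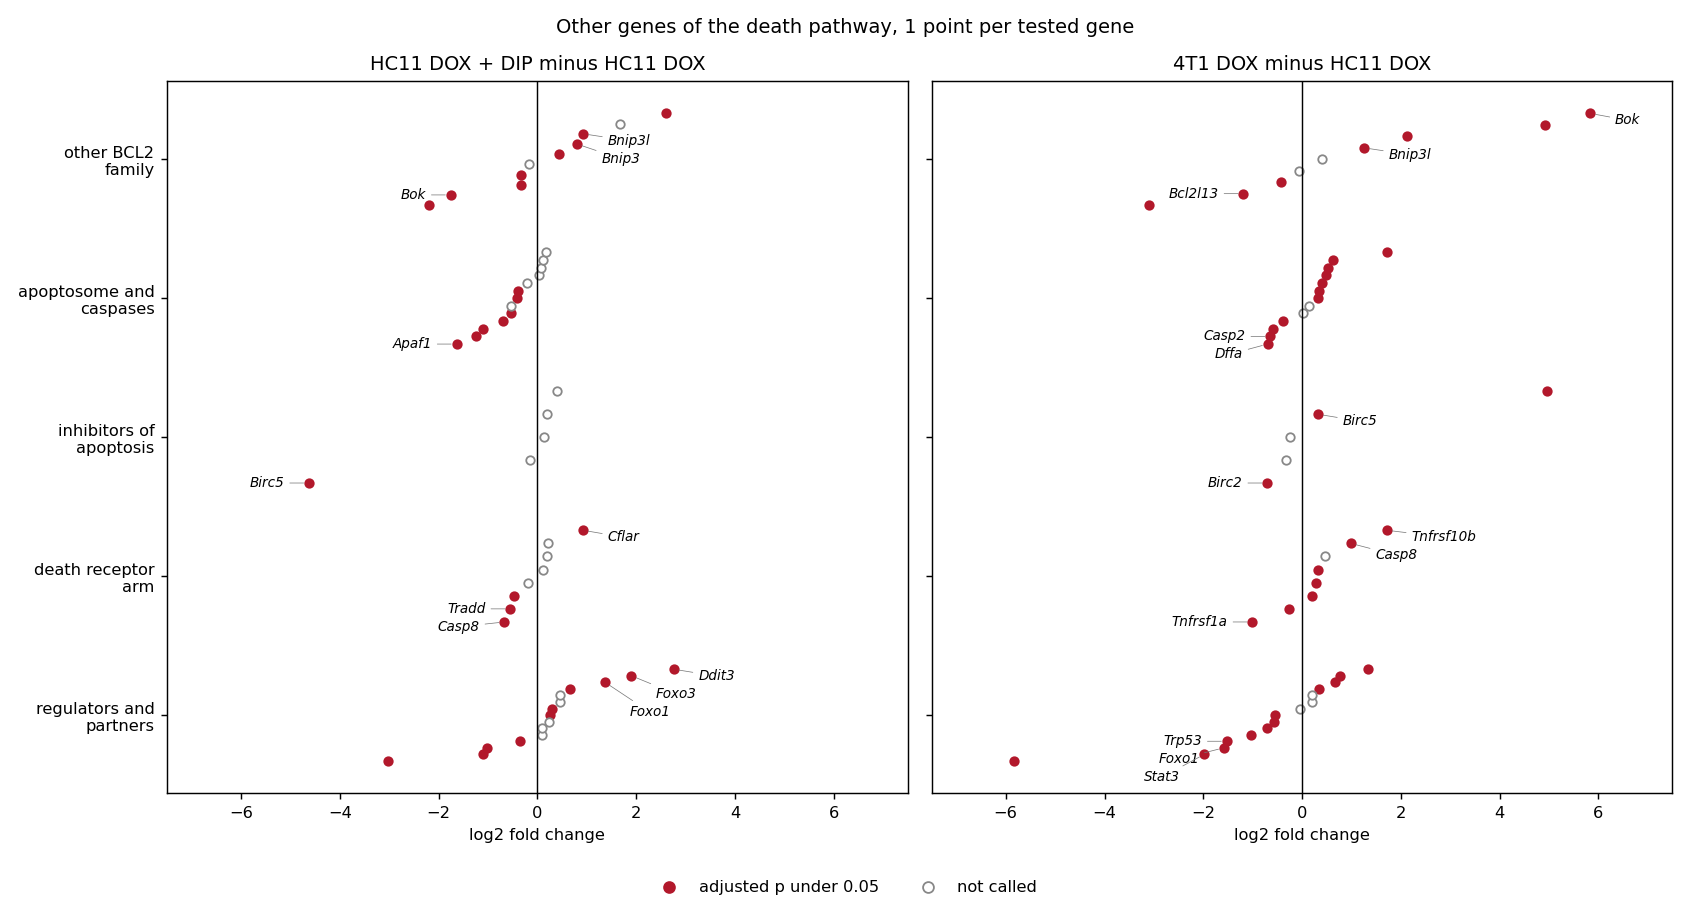
Log2 fold change (x axis) of each tested gene on 5 lists of the death pathway for DIP in HC11 (left) and for 4T1 DOX minus HC11 DOX (right), with genes past an adjusted p of 0.05 filled and the others open, and some of the called genes named, leaving out those whose mean log2 CPM is under 1. In the apoptosome and caspase list 7 of 13 genes stand filled left of 0 on the left side, Apaf1 farthest at -1.64.

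Promoter windows from 250 bases before to 50 after each start (RefSeq, GRCm38.p6) were found for all 10 genes, 18 windows in all. The FOXO motif GTAAACA, on either strand, was in 2 of the 18, those of Bbc3 and Bcl2l11 below, and in 3.65% of all 32851 windows. The STAT motif TTCNNNGAA and the CHOP motif TGATGCAA were in 0 of the 18, and in 8.30% and 0.895% of the background windows. The p53 decamer was in 2 (Bax and 1 window of Bmf) and in 8.36% of the background windows. Both windows with FOXO letters are shown, and the windows with the p53 decamer are not. Capitals mark the match, 167 bases before the start in Bbc3 (chr7:16310011-16310310, plus strand) and 227 in Bcl2l11 (chr2:128125788-128126087, plus strand).
Bbc3: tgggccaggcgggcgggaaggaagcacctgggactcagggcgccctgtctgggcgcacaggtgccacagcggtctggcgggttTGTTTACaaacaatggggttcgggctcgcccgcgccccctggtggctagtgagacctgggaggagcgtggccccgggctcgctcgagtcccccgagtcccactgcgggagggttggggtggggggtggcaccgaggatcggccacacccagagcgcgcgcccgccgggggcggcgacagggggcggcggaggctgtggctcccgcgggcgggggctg
Bcl2l11: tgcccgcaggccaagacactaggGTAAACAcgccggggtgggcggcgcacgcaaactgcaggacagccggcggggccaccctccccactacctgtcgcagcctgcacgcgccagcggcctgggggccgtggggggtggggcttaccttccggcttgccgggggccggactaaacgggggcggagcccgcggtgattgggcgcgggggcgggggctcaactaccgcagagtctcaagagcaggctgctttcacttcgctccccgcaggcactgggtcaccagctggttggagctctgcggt
A match is a run of letters and not a shown binding site.

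The genes whose log2 CPM followed each member most closely over the 28 libraries, by Pearson's r among 10354 genes, are given as a description: the libraries share 3 groups, and libraries 8 and 10 weigh in every r. Bak1 had the closest, Ube2s (r = 0.99) and Bub3 (0.98), which serve in mitosis. Bax was followed by Apex1 (0.98), a DNA repair gene, and the proteasome gene Psmb5 (0.97), and Bbc3 by Syf2 (0.97) and Chic2 (0.97). For Bcl2l1 these were Tmem19 (0.95) and S100a1 (0.94), for Mcl1 Serinc1 (0.94) and Mafk (0.92), and for Bmf Elmo3 (0.95) and Gstt3 (0.94). For Bad they were Gcdh (0.93) and Fkbp8 (0.93), for Bid Dnajc25 (0.93) and P3h2 (0.92), and for Bcl2l11 Irs2 (0.91), of insulin signalling, and B4galt7 (0.90). Bcl2 had the loosest, Dusp6 (0.81) and Impa2 (0.79).

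No source used here gives the strand setting of the counting, so reads in exons shared with a gene on the other strand cannot be assigned. In GENCODE vM21, 17.7% of the exon bases of Bid are shared with Bcl2l13, 20.5% of those of Bad with Gpr137, 18.2% and 7.35% of those of Bak1 with the 2 identifiers named Ggnbp1, and 6.09% of those of Bcl2 with D630008O14Rik, all on the opposite strand. Of Bax, 12.2% are shared with Gm45808 on the same strand. Bcl2l13 was at 94.1, 73.8 and 41.4 CPM in HC11 DOX, HC11 DOX + DIP and 4T1 DOX, a lower level in 4T1 as for Bid, and Gm45808 at 17.1, 15.01 and 34.1 CPM, a higher one as for Bax. Others went against their member: the Ggnbp1 identifier with the smaller shared part was at 18.5, 24.9 and 11.9 CPM, higher with DIP and lower in 4T1 where Bak1 was the reverse, and Gpr137 at 14.2, 20.7 and 10.3 CPM rose with DIP (0.57 on the log2 scale) where Bad stood at -0.10. The other Ggnbp1 identifier, at 24.5, 17.4 and 29.5 CPM, moved as Bak1 did. The part of the neighbours in these values was not tested. Bcl2l1, Mcl1, Bmf, Bcl2l11 and Bbc3 share no exon base with another annotated gene.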

How the data were processed

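The deposited files hold whole read counts per Ensembl gene, 1 file for each of 28 libraries. The authors used fastp 0.23.2, featureCounts 2.0.1 and the GRCm39 build to make them, per the submitters' processing notes. Not given in the sources used here are the aligner, the annotation release and whether counting used strand. Per the labels' protocols, RNA was extracted with TRIzol and libraries were made with an rRNA-removing NEBNext Ultra II kit. Library totals ran from 134117581 to 222065843.

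Groups came from the cell line and treatment labels, and library numbers follow the series' order, as names only. Each of 3 comparisons was fitted to its own groups in edgeR 4.0.16 (R 4.3.3): filterByExpr, TMM, robust glmQLFit, glmQLFTest and Benjamini-Hochberg adjustment over all genes tested, with calls at an adjusted p under 0.05. The SE is the log2 fold change divided by the square root of F, and 95% intervals are 1.96 SE. CPM were scaled with TMM over the 28 libraries together, and log2 CPM used a prior count of 2. The procedure was also run on simulated counts with 200 changed genes, far fewer than were called in these data. That run cannot check the scaling where many genes differ. Alternatives were DESeq2 1.42.0, limma 3.58.1 voom, other scalings, no filter, all groups in 1 fit, and libraries left out.

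All 10 genes are named in every comparison. Of each other list, the 3 called genes with the largest change at a mean log2 CPM of at least 1 are named, and for likeness the 2 genes with the highest r at a mean log2 CPM of at least 2. Some genes that this rule picks are not reported here. The 10 genes, the lists, the rules and the libraries left out were chosen with earlier results of these data known. Of 3 checks of hormone response and cycling, Tsc22d3 and Fkbp5 rose and Mki67 fell with DIP. DIP libraries 8 and 10 differed for Fkbp5, at 22.8 and 23.5 CPM, below the 28.1 to 49.9 CPM of HC11 DOX. Their Tsc22d3, at 35.3 and 48.0 CPM, was above the highest HC11 DOX value of 28.8. Of the 6 epithelial markers 1 rose and 3 fell with DIP, and 2 were higher and 3 lower in 4T1 than in HC11 DOX. Of the markers of other cells 5 were tested, of which 2 rose and 1 fell with DIP, and 1 was higher and 3 lower in 4T1. Symbols, exon lengths and overlaps came from GENCODE vM21 (GRCm38) by identifier. Since the counts are on GRCm39, no coordinates of the counting are given, and promoter coordinates are those of GRCm38.p6.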

Additional observations from a re-analysis of the deposited data

Results flagged for a closer look

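In 1 of 30 groups checked, 1 library lay far from the rest of its group by Dixon's gap test: Bid in HC11 DOX + DIP library 1, at 97.8 CPM, where the next highest library held 77.3 CPM. The gap was 0.472 of the group's range. Chance alone flags about 1 in 20 groups, so this number of flags is no more than that. Bid did not pass the test of DIP with this library or without it (adjusted p 0.219 to 0.608 with 1 library left out at a time). A pair of libraries apart together, as DIP libraries 8 and 10 were, is not found by this test.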

How the results depend on the processing

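No paired analysis was possible because the labels give no replicate, culture or batch, and library numbers are names only. Over 28 alternatives for DIP, 26 for 4T1 against HC11 DOX and 27 for 4T1 against HC11 DOX + DIP, the number of the 10 genes called ran from 3 to 5, 6 to 9 and 7 to 9. The genes called in all ran from 10244 to 12803, 16184 to 20794 and 17132 to 22882. Mcl1, Bak1 and Bbc3 kept their direction and call under every alternative for DIP, as did Bax, Bak1, Bid, Bmf, Bcl2l11 and Bbc3 in both comparisons of 4T1. Directions turned for 2 genes whose difference had not passed the test. Bad turned to 0.0542 for DIP without libraries 8 and 10, and in 4T1 against HC11 DOX + DIP to 0.0285 by limma voom. With 1 library left out at a time it ran from -0.143 to 0.00821 there. Mcl1 in 4T1 against HC11 DOX turned to -0.18 by library totals alone, and ran from -0.000627 to 0.0886 with 1 library left out. For 4T1 against HC11 DOX the genes called lower fell from 4 to 2 with no filter on low counts and with all groups in 1 fit, where Bcl2l1 (adjusted p = 0.0948 and 0.506) and Bad (0.103 and 0.204) were lost. The cause was not tested. Bcl2l11 passed for DIP with all groups in 1 fit (adjusted p = 0.0461) and without HC11 DOX library 1 or DIP library 1 or 6 (0.0499, 0.0461 and 0.0464), within 0.0461 to 0.182 over the alternatives. Bnip3 lost its call for DIP by limma voom (adjusted p = 0.0908), with no filter and with any 1 of 10 libraries left out (up to 0.0937). Depth did not limit the 10 genes, with at least 170 counts each in every library.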

Other observations

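DIP libraries 8 and 10, in which Bcl2l1, Bad and Bmf were low and Bbc3 high, also differed from the other 8 in some regulators of these genes. Of all 23829 genes, 51.2% lay above or below all of the other 8 in both libraries. Such differences were therefore common and not particular to these regulators. The genes named here were chosen after their values were seen, and their part in the levels of the 10 genes was not tested. Among the listed regulators and partners, Trp73, Dynll1, Huwe1, Usp9x, Fbxw7 and Pim1 did not lie beyond the other 8 in both libraries. Trp53 stood at 465 and 526.2 CPM in them, where the other 8 held 66.1 to 134 CPM and HC11 DOX 93.9 to 159 CPM. Pmaip1, which encodes the BH3-only protein NOXA, stood at 2.72 and 2.52 CPM, where the highest of the other 8 held 0.83 and the highest HC11 DOX library 0.57 CPM. Ddit3 was at 154 and 145 CPM, above the 32.4 to 136 CPM of the other 8. Foxo3, at 67.2 and 60.1 CPM, and Foxo1, at 37.6 and 43.2 CPM, were below all of the other 8. HC11 DOX libraries held 22.3 to 53.8 CPM of Foxo3, less than either of these 2 libraries, and 41.4 to 98.8 CPM of Foxo1. Stat3 was at 98.0 and 93.5 CPM, below the 180 to 289 CPM of the other 8 and the 113 to 196 CPM of HC11 DOX. Tradd, at 6.35 and 6.51 CPM, and Ripk1, at 13.03 and 13.5 CPM, were below every other HC11 library. Apaf1 and Birc5 were low in all 10 DIP libraries, these 2 included, and Mki67 stood at 8.81 and 10.1 CPM in them.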
